A study of Rattus norvegicus with 12 samples.

Results

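The CCN matricellular family was followed through 12 RNA sequencing libraries of cultured cardiac fibroblasts in which Yap, Wwtr1 or both had been depleted. Members were the rows of the deposited normalized count table under the symbols Ccn1, Ccn2, Ccn3, Ccn4 and Ccn5, which are 5 of its 12271 genes, and all 5 passed the filter on low values. Ccn6 was not analysed here. The cells came from ventricles of Sprague Dawley rats at postnatal day 2. They were transfected with small interfering RNA (siRNA), which lowers the messenger RNA it matches. Each target was given a pair of siRNAs, each at 25 nM, and the labels give 48 hours from transfection to collection, whereas the study's methods describe a later collection, counted from a change of medium on the day after transfection. The 4 groups of 3 libraries received negative siRNA (universal control siRNAs #1 and #2), Yap siRNA, Wwtr1 siRNA, or Yap+Wwtr1 siRNA (the double knockdown). All groups were therefore transfected, and none was left without siRNA. The siRNA field of the double knockdown names only the Wwtr1 siRNAs, so that group was taken from the sample titles. If both pairs were given at the stated dose, the double knockdown also received more siRNA in total than the other groups. Such a difference cannot be told apart from the depletion of both genes. The design text of the series mentions myocytes where the labels and the study give fibroblasts.

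CCN proteins are secreted, cysteine-rich proteins that sit in the matrix and act on cells through integrins, lipoprotein receptor-related proteins and heparan sulphate proteoglycans. Ccn1 (Cyr61) and Ccn2 (connective tissue growth factor) are textbook targets of Yap and Wwtr1, coactivators that bind DNA through TEAD factors. Ccn2 is widely used as a marker of profibrotic fibroblast activity, Ccn3 (Nov) is often described as opposing Ccn2, Ccn4 (Wisp1) was first described as a Wnt-induced gene, and Ccn5 (Wisp2) lacks the C-terminal cysteine knot of the other members. The comparison asked which of these genes depend on Yap, on Wwtr1, or on both.

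The promoters of Ccn1 and Ccn2 are shown first, the 2 of the 5 members for which RefSeq promoter entries (build GRCr8) were at hand. Whether these promoters bear on the siRNA effects was not tested. The 250 bases before the start of each gene were searched on both strands for GGAATG, the core that TEAD factors recognise, whose reverse complement is CATTCC. Matches are in capitals. Both genes lie on the minus strand, Ccn1 at chr2:237225690-237225939 and Ccn2 at chr1:22624615-22624864, and each window is written 5′ to 3′ toward the gene.
Ccn1: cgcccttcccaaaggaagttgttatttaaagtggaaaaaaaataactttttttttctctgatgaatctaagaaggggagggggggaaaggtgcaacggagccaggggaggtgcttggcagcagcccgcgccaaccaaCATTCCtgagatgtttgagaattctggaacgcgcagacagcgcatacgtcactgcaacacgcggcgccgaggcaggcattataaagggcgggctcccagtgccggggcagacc
Ccn2: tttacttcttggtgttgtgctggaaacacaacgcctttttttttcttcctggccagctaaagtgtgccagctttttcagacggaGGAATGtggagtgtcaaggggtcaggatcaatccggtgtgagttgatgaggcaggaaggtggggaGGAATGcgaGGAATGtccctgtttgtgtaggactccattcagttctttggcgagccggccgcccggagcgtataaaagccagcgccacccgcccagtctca
Ccn1 held 1 match, at bases 113 to 108 before the start and on the strand opposite to the gene. Ccn2 held 3, at bases 166 to 161, 101 to 96 and 92 to 87, all on the strand of the gene. Of 33465 rat promoters of the same length, 12.1% held at least 1 match and 0.0807% (27 promoters) held 3 or more. The SMAD core CAGAC, present in 42.9% of promoters, occurred 2 times in Ccn1 and 1 time in Ccn2, and the AP-1 motif TGANTCA, present in 6.34%, was found in neither window. A match describes these letters and does not show that a factor binds there.

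The targeted genes were lower where their siRNA was given. Yap1 had 3042, 3776 and 2984 normalized counts in negative siRNA replicates 1, 2 and 3, and 532, 576 and 625 under Yap siRNA. It had 713, 739 and 1474 in the double knockdown, where replicate 3 kept the most. Wwtr1 had 2364, 2565 and 2280 under negative siRNA, 524, 550 and 637 under Wwtr1 siRNA, and 818, 731 and 1056 under both siRNAs. Residual Wwtr1 was higher in the double knockdown than under Wwtr1 siRNA alone (log2 difference 0.59, SE 0.13, limma adjusted p 0.00804). For Yap1 the matching difference from Yap siRNA alone was 0.67 (SE 0.22) and did not pass (adjusted p 0.0623), although it passed with edgeR (adjusted p 0.0494), with DESeq2 (adjusted p 0.00722) and in the fits without double knockdown replicate 1 or 2 (adjusted p 0.0369 to 0.0486). Without double knockdown replicate 3 the Yap1 difference was 0.33, and it ran up to 0.86 without replicate 1.

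Several features of the libraries accompanied every comparison described here. Recovered totals ran from 33.9 to 41.1 M whole units, more than the reads per sample that the study's methods name. Double knockdown replicates 2 and 3 were the highest, at 41.0 and 41.1 M. Double knockdown replicate 3 stood apart from the other libraries of its group, with a chi-square per gene of 123 and 128 against them, compared with at most 50.4 for every other pair of replicates. All 11 genes of an interferon response list were higher both in the double knockdown and under Yap siRNA, and 10 of 11 were higher under Wwtr1 siRNA (11 of 11 in the blocked fit explained under the single knockdowns). Isg15, a ubiquitin-like protein induced by interferon, ranged from 55.4 to 252 normalized counts under negative siRNA, 840 to 3759 under Yap siRNA, 815 to 4981 under Wwtr1 siRNA and 4471 to 7643 in the double knockdown. All 10 fibroblast markers were detected in every library, with summed levels of 2.79 to 3.29 M normalized counts under negative siRNA, 3.52 to 3.69 M under Yap siRNA, 2.82 to 3.03 M under Wwtr1 siRNA and 2.58 to 3.78 M in the double knockdown. The Yap siRNA sums thus lay above every negative siRNA library, and 1 fibroblast marker, the matrix protein Postn, was called higher there. In the double knockdown, where 32.8% of all genes were called, 6 of 10 fibroblast markers were called (4 higher, 2 lower). Cardiomyocyte markers summed to 42274 to 74263 under negative siRNA, 49572 to 82433 under Yap siRNA, 45120 to 83469 under Wwtr1 siRNA and 69505 to 92740 in the double knockdown, where 3 of 10 were called higher. Macrophage markers summed to 21865 to 31887 under negative siRNA, 19233 to 28531 under Yap siRNA, 11962 to 20058 under Wwtr1 siRNA and 7208, 14296 and 48487 in double knockdown replicates 1, 2 and 3, with Cx3cr1 at 0 in the first of these and 1 of 10 called lower. Endothelial markers summed to 868 to 1265 under negative siRNA and were above this range in every other group, at 1342 to 1622 under Yap siRNA, 1277 to 1412 under Wwtr1 siRNA and 1556 to 2448 in the double knockdown. Of these markers 5 of 9 were called higher in the double knockdown and 1 under Wwtr1 siRNA. Emcn was at 0 in 7 libraries and Cldn5 in 4, and for both genes these included libraries of every group. Smooth muscle and pericyte markers summed to 33820 to 39159 under negative siRNA, 25632 to 32113 under Yap siRNA (1 of 8 called lower), 42228 to 56624 under Wwtr1 siRNA and 29998 to 41641 in the double knockdown, where 5 of 8 were called (4 higher, 1 lower). Of 6 mesothelial markers, 4 were measured, and they summed to 1128 to 2175 over all libraries, with 1 called higher under Yap siRNA and 2 called in the double knockdown (1 higher, 1 lower). The part of any of these in the results was not tested. In bulk RNA, fewer cells that express a gene and less RNA per cell cannot be told apart.

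Of the 5 genes, 4 were called lower in the double knockdown. Which of them were called with a single siRNA depended on the fit, above all on pairing replicate numbers with the double knockdown libraries left out. In the main fit (limma over all 12 libraries, adjusted over 11871 genes, threshold 0.05), Ccn1 and Ccn2 fell under Yap siRNA, a comparison in which 4.8% of all genes were called and 1.78% were called lower. Ccn3 fell under Wwtr1 siRNA, where 8.96% of genes were called and 3.96% were called lower. With same-numbered libraries paired on the 9 libraries outside the double knockdown, Ccn1, Ccn2, Ccn3 and Ccn5 were called lower with either siRNA (limma adjusted p 5.75e-05 to 0.0104 under Yap siRNA and 1.8e-05 to 0.00397 under Wwtr1 siRNA), beside 7.12% and 10.3% of all genes. Ccn1, Ccn2, Ccn3 and Ccn5 fell in the double knockdown, where 32.8% of genes were called and 15.6% were called lower. In the main fit Ccn4 was not called against negative siRNA in any group, and with the pairing it was called higher under Wwtr1 siRNA (adjusted p 0.0128), beside 11% of all genes. The 3 comparisons share the negative siRNA libraries and are not independent of each other.

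**Figure D1:**
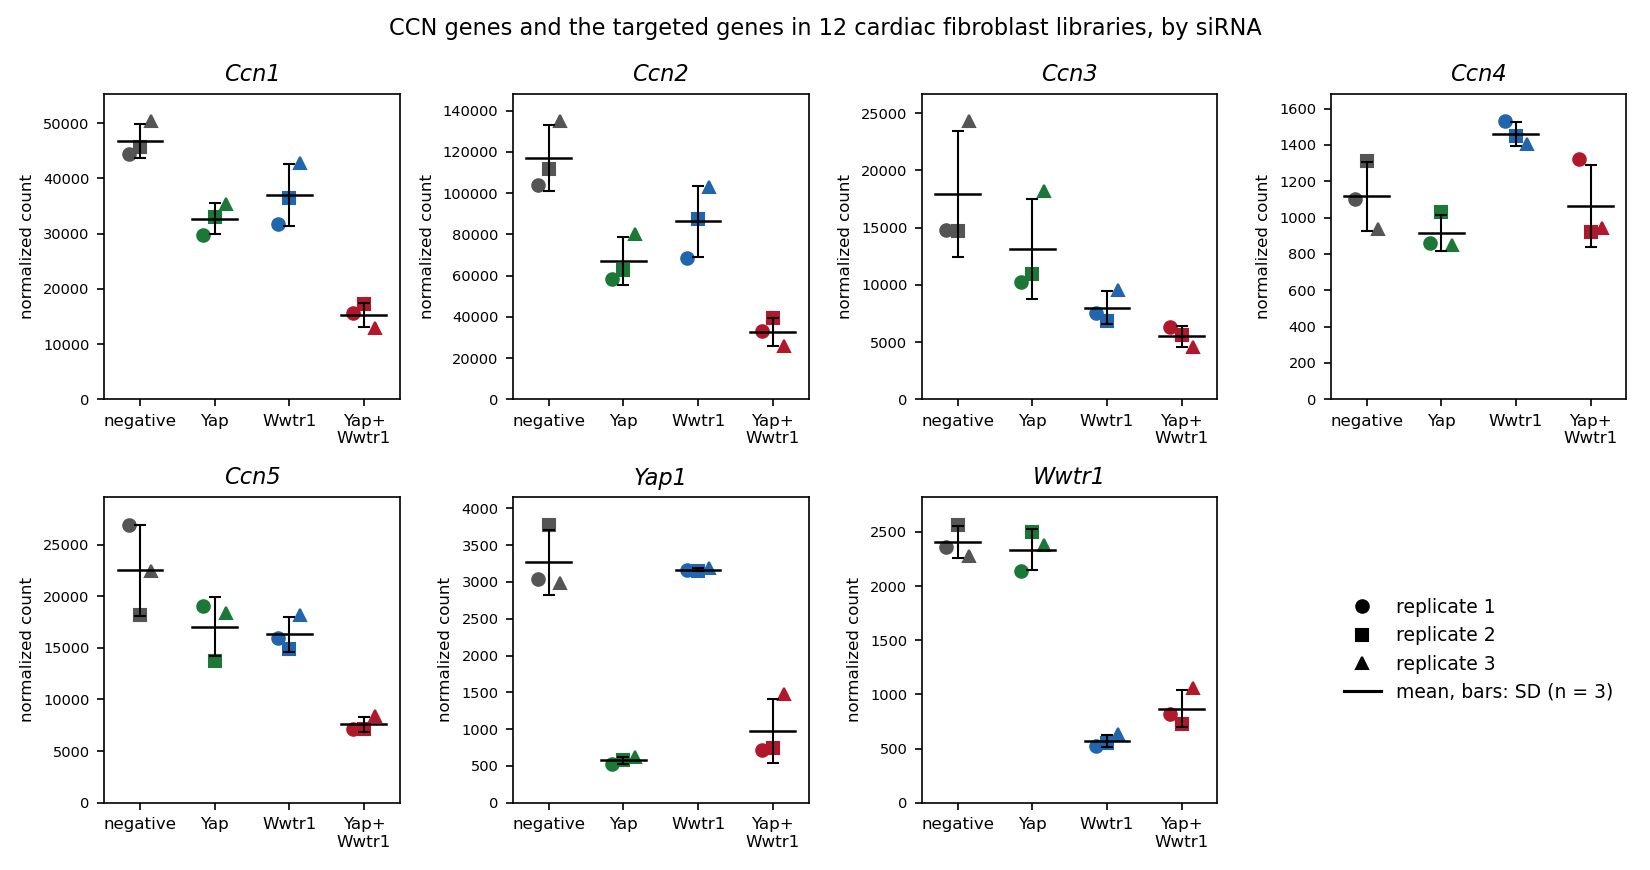
Normalized counts of the 5 CCN genes, Yap1 and Wwtr1 (y axes, from 0) in each library, grouped by siRNA (x axes), with marker shape giving the replicate number and bars the mean and SD of 3 libraries. The double knockdown libraries lie below all negative siRNA libraries for Ccn1, Ccn2, Ccn3 and Ccn5, whereas Ccn4 is highest under Wwtr1 siRNA.

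Ccn2 fell under Yap siRNA and fell further in the double knockdown. Its normalized counts were 104083, 111609 and 134840 under negative siRNA, 58480, 62474 and 80257 under Yap siRNA, 68613, 87455 and 102879 under Wwtr1 siRNA, and 33133, 39349 and 25769 under both siRNAs. Every Yap siRNA library was below every negative siRNA library and above every double knockdown library, and the Wwtr1 siRNA libraries overlapped those of Yap siRNA. Group means were 57.4%, 73.9% and 28.0% of the negative siRNA mean under Yap siRNA, Wwtr1 siRNA and both. The log2 fold change was -0.81 under Yap siRNA (SE 0.19, limma adjusted p 0.0342), -0.45 under Wwtr1 siRNA (SE 0.19, adjusted p 0.169) and, for the double knockdown, -1.85 (SE 0.19, adjusted p 3.93e-05). The log2 difference of the double knockdown was -1.04 from Yap siRNA (adjusted p 0.00411) and -1.40 from Wwtr1 siRNA (adjusted p 0.00058). The call under Yap siRNA was lost without any one of negative siRNA replicates 1, 2 and 3, Yap siRNA replicates 1 and 2, and Wwtr1 siRNA replicate 2 (log2 fold change -0.88 to -0.70, adjusted p 0.0524 to 0.140), and without a mean-variance trend (adjusted p 0.0715). Under Wwtr1 siRNA the value was -0.29 without Wwtr1 siRNA replicate 1. The double knockdown calls held in all 12 fits that left out a library, and without replicate 3 the log2 fold change against negative siRNA was -1.69.

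Ccn1 had the same order of group means as Ccn2. It had 44368, 45692 and 50346 normalized counts under negative siRNA, 29779, 33073 and 35326 under Yap siRNA, 31665, 36526 and 42804 under Wwtr1 siRNA, and 15553, 17224 and 12848 under both siRNAs. Neither single knockdown overlapped the negative siRNA libraries or the double knockdown, and the single knockdowns overlapped each other. Means were 69.9%, 79.1% and 32.5% of the negative siRNA mean under Yap siRNA, Wwtr1 siRNA and both. The log2 fold change was -0.52 under Yap siRNA (SE 0.13, limma adjusted p 0.0407), -0.35 under Wwtr1 siRNA (SE 0.13, adjusted p 0.116) and, for the double knockdown, -1.63 (SE 0.13, adjusted p 9.76e-06). Set against the single knockdowns, the double knockdown lay at -1.11 from Yap siRNA (adjusted p 0.000366) and at -1.28 from Wwtr1 siRNA (adjusted p 0.000106) on the log2 scale. The call under Yap siRNA was lost without the same 6 libraries as for Ccn2, which are the negative siRNA replicates 1, 2 and 3, Yap siRNA replicates 1 and 2 and Wwtr1 siRNA replicate 2 (log2 fold change -0.55 to -0.45, adjusted p 0.0655 to 0.159), and without a trend (adjusted p 0.079). Against negative siRNA the double knockdown value was -1.51 without its replicate 3, and its calls held whichever library was left out.

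Ccn3 was the member with the largest fold change under Wwtr1 siRNA. Its normalized counts were 14764, 14741 and 24288 under negative siRNA, 10274, 10968 and 18193 under Yap siRNA, 7539, 6855 and 9589 under Wwtr1 siRNA, and 6275, 5650 and 4533 under both siRNAs. Replicate 3 was well above the others in the negative and Yap siRNA groups, whose libraries overlapped. All Wwtr1 siRNA libraries were below all negative and all Yap siRNA libraries, and all double knockdown libraries were lower still. Means were 73.3%, 44.6% and 30.6% of the negative siRNA mean under Yap siRNA, Wwtr1 siRNA and both. The log2 fold change was -0.46 under Yap siRNA (SE 0.24, limma adjusted p 0.325), -1.14 under Wwtr1 siRNA (SE 0.24, adjusted p 0.0124) and, for the double knockdown, -1.68 (SE 0.24, adjusted p 0.000328). The double knockdown was lower than Yap siRNA alone (log2 difference -1.22, adjusted p 0.00695), whereas its difference from Wwtr1 siRNA alone, -0.54 (95% interval -1.07 to -0.02), did not pass after adjustment (adjusted p 0.135). Under Yap siRNA the value ran from -0.71 without Yap siRNA replicate 3 to -0.22 without negative siRNA replicate 3. The call under Wwtr1 siRNA was lost without negative siRNA replicate 3, Wwtr1 siRNA replicate 1 or Wwtr1 siRNA replicate 2 (log2 fold change -1.10 to -0.90, adjusted p 0.0504 to 0.0592). The calls of the double knockdown against negative and against Yap siRNA held in all 12 such fits, with -1.55 against negative siRNA when its replicate 3 was left out.

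Ccn5 was called in the double knockdown and, in the main fit, in neither single knockdown. It had 26913, 18148 and 22411 normalized counts under negative siRNA, 19029, 13741 and 18413 under Yap siRNA, 15908, 14886 and 18153 under Wwtr1 siRNA, and 7182, 7170 and 8411 under both siRNAs. The 3 double knockdown libraries were close together and below every other library, and the single knockdowns overlapped each other. Means were 75.9%, 72.5% and 33.7% of the negative siRNA mean under Yap siRNA, Wwtr1 siRNA and both. The log2 fold change was -0.39 under Yap siRNA (SE 0.15, limma adjusted p 0.174), -0.45 under Wwtr1 siRNA (SE 0.15, adjusted p 0.0932) and, for the double knockdown, -1.55 (SE 0.15, adjusted p 3.34e-05). From Yap siRNA the double knockdown differed by -1.16 (adjusted p 0.000797), and from Wwtr1 siRNA by -1.10 (adjusted p 0.000713), on the log2 scale. These 3 double knockdown calls held without any single library, and the value against negative siRNA was -1.63 without double knockdown replicate 3. Under Wwtr1 siRNA the gene passed without negative siRNA replicate 2 (log2 fold change -0.59, adjusted p 0.042), with DESeq2 (-0.46, adjusted p 0.0269, beside 13% of all genes) and with the replicate number as a block, both over all 12 libraries (-0.45, adjusted p 0.0251) and on the 9 libraries outside the double knockdown (-0.45, adjusted p 0.00397). Under Yap siRNA it passed in the block on 9 libraries (-0.39, adjusted p 0.0104) but not in the block over all 12 (adjusted p 0.0547). In the main fit without Yap siRNA replicate 2, its value under Yap siRNA was -0.25.

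Ccn4 was the member that differed between the single knockdowns in the main fit. It had 1102, 1311 and 934 normalized counts under negative siRNA, 862, 1028 and 849 under Yap siRNA, 1530, 1446 and 1404 under Wwtr1 siRNA, and 1324, 921 and 942 under both siRNAs. The Wwtr1 siRNA libraries were above all others, and the remaining groups overlapped each other. Means were 81.8%, 131% and 95.2% of the negative siRNA mean under Yap siRNA, Wwtr1 siRNA and both. Yap siRNA lay below Wwtr1 siRNA, with a log2 difference of -0.68 (SE 0.15, limma adjusted p 0.0185). Ccn4 was the member called in that comparison, in which 8.79% of all genes were called. Against negative siRNA the log2 fold change was -0.28 under Yap siRNA (SE 0.15, adjusted p 0.34), 0.40 under Wwtr1 siRNA (SE 0.15, adjusted p 0.133) and, for the double knockdown, -0.08 (95% interval -0.41 to 0.25, adjusted p 0.733). The log2 difference of the double knockdown from Wwtr1 siRNA was -0.48 (adjusted p 0.0456), and from Yap siRNA it was 0.20 (95% interval -0.13 to 0.54, adjusted p 0.41). The latter was 0.035 without double knockdown replicate 1, and under Yap siRNA the value ran from -0.40 without negative siRNA replicate 3 to -0.16 without negative siRNA replicate 2. The call between the single knockdowns was lost without Yap siRNA replicate 1 or 3 or any of Wwtr1 siRNA replicates 1, 2 and 3 (-0.71 to -0.63, adjusted p 0.0504 to 0.0696). The call of the double knockdown against Wwtr1 siRNA was lost in 8 of 12 fits, those without negative siRNA replicate 1, Yap siRNA replicate 1 or 3, Wwtr1 siRNA replicate 1, 2 or 3, or double knockdown replicate 2 or 3 (-0.51 to -0.39, adjusted p 0.0544 to 0.143), and also with edgeR (adjusted p 0.0501), without a trend (adjusted p 0.0706) and in a fit on the compared groups alone (adjusted p 0.0691). Summed smooth muscle and pericyte markers were also higher in every Wwtr1 siRNA library than in any negative or Yap siRNA library. Singly, these 8 markers ran from -0.41 to 0.52 under Wwtr1 siRNA. In the main fit 0 were called there, and 4 were called higher with the pairing on 9 libraries. Their part in the Ccn4 values was not tested.

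**Figure D2:**
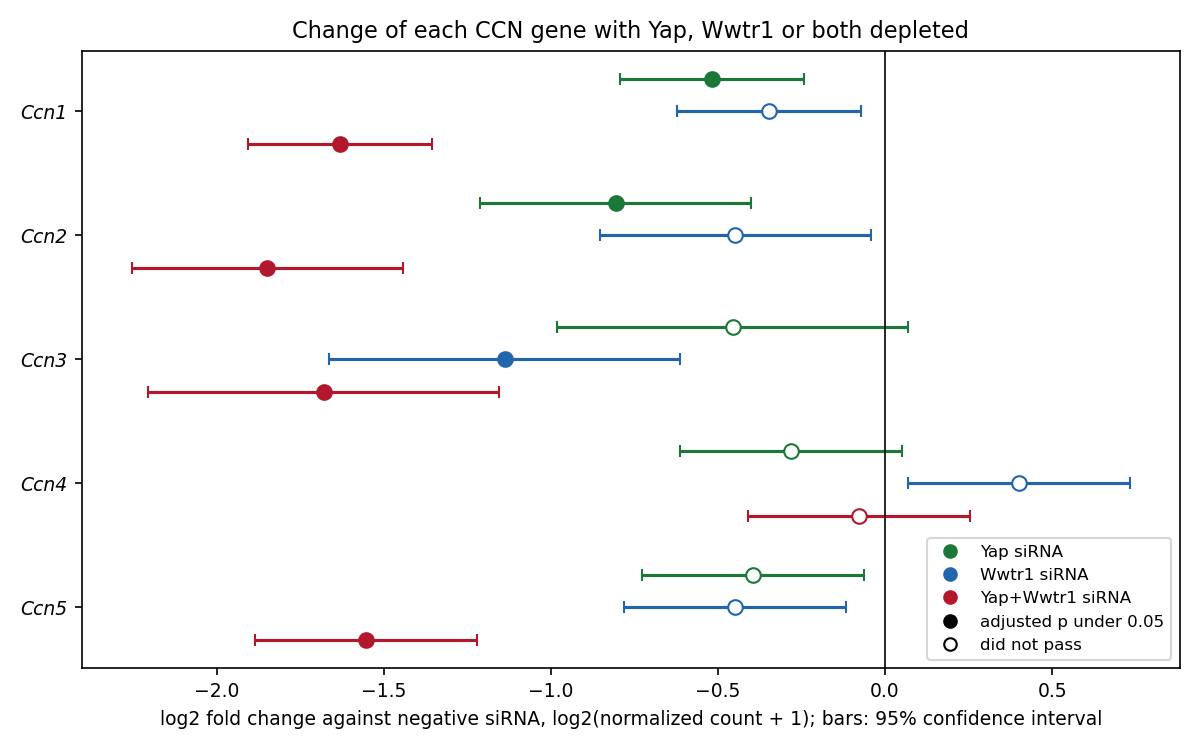
Log2 fold change of each CCN gene against negative siRNA (x axis, on log2(normalized count + 1), with 95% confidence intervals from limma) for Yap siRNA, Wwtr1 siRNA and both, with filled circles for adjusted p under 0.05. Ccn1, Ccn2, Ccn3 and Ccn5 lie between -1.85 and -1.55 in the double knockdown, and Ccn4 lies at -0.08.

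Across pairs of groups, 4 of 5 members were called lower in the double knockdown than under Yap siRNA, where 13.8% of genes were called and 6.96% were called lower. Another 4 of 5 were called lower than under Wwtr1 siRNA, where 19.9% were called and 10.1% were called lower. Ccn3 is absent from the second group of calls and Ccn4 from the first. The order of mean levels was negative siRNA, Wwtr1 siRNA, Yap siRNA and double knockdown for Ccn1 and Ccn2, but negative siRNA, Yap siRNA, Wwtr1 siRNA and double knockdown for Ccn3 and Ccn5. For Ccn4 it was Wwtr1 siRNA, negative siRNA, double knockdown and Yap siRNA. In the fold changes, the order of the single knockdowns for Ccn5 turned without Yap siRNA replicate 1 or 3 or Wwtr1 siRNA replicate 2, and that of negative siRNA and double knockdown for Ccn4 turned without replicate 2 of either group. In the main fit the neighbouring single knockdowns did not pass against each other for Ccn1 (log2 difference of Yap from Wwtr1 siRNA -0.17, adjusted p 0.451), Ccn2 (-0.36, adjusted p 0.261), Ccn3 (0.68, adjusted p 0.103) or Ccn5 (0.05, adjusted p 0.866). Leaving out a library moved these differences to between -0.28 and -0.059 for Ccn1, -0.51 and -0.22 for Ccn2 (in both genes without Wwtr1 siRNA replicate 1 and 3), and 0.42 and 0.84 for Ccn3 (without Yap siRNA replicate 3 and 1).

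The single knockdowns looked different once libraries of the same replicate number were compared. Same-numbered libraries of the negative, Yap and Wwtr1 siRNA groups deviated together over all genes tested, so a fit with the replicate number as a block was also made on these 9 libraries. The Ccn2 ratio of Yap siRNA to the same-numbered negative siRNA library was 0.562, 0.560 and 0.595, a narrower spread than its levels had. For Ccn3 this ratio was 0.696, 0.744 and 0.749 under Yap siRNA and 0.511, 0.465 and 0.395 under Wwtr1 siRNA. Ccn1 gave 0.671, 0.724 and 0.702 under Yap siRNA and 0.714, 0.799 and 0.850 under Wwtr1 siRNA. Ccn5 gave 0.707, 0.757 and 0.822 under Yap siRNA and 0.591, 0.820 and 0.810 under Wwtr1 siRNA. All ratios of Ccn1, Ccn2, Ccn3 and Ccn5 were thus below 1 with either siRNA. Ccn4 ratios were 0.782, 0.784 and 0.909 under Yap siRNA and 1.39, 1.10 and 1.50 under Wwtr1 siRNA, below and above 1 in turn. Not every spread narrowed. Relative to their means, the Wwtr1 siRNA ratios of Ccn4 and Ccn5 spread more widely than the levels of these genes under Wwtr1 siRNA.

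**Figure D3:**
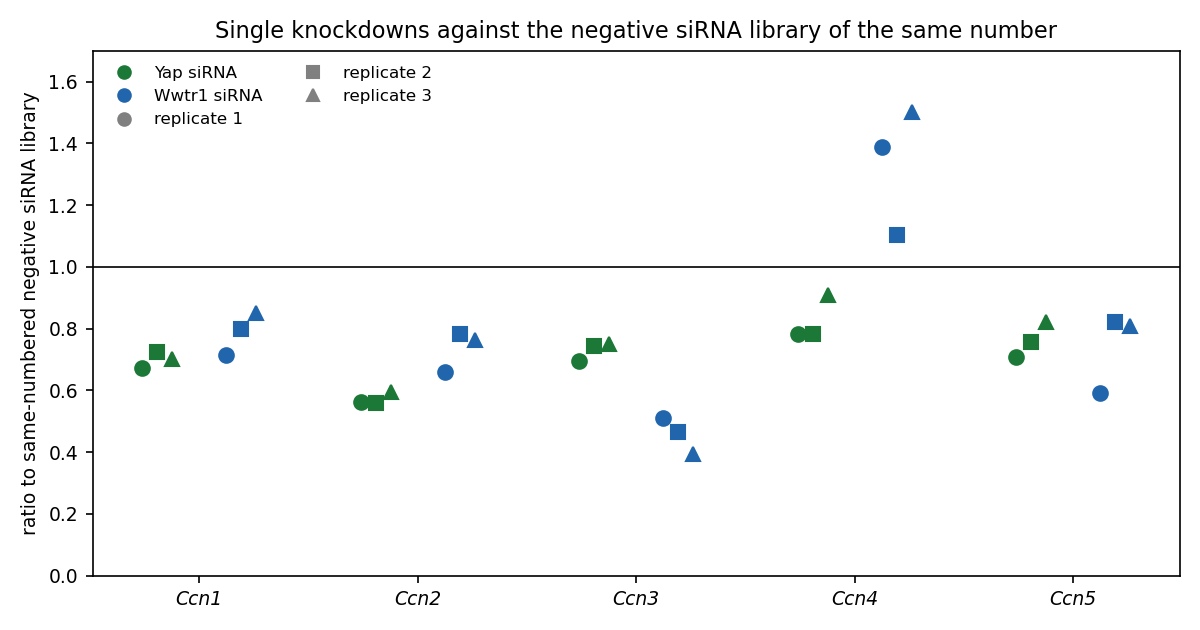
Ratio of each Yap or Wwtr1 siRNA library to the negative siRNA library of the same replicate number (y axis, 1 marks no difference) for the 5 CCN genes (x axis), with marker shape giving the number. The 3 Ccn2 ratios under Yap siRNA lie between 0.560 and 0.595, and Ccn4 is the gene whose Wwtr1 siRNA ratios exceed 1.

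With the replicate block, 4 of 5 members were called lower under Yap siRNA, a comparison in which 16% of all genes were then called and 7.12% were called lower. They were Ccn1 (limma adjusted p 0.000257), Ccn2 (adjusted p 5.75e-05), Ccn3 (adjusted p 0.00347) and Ccn5 (adjusted p 0.0104), and Ccn4 did not pass (adjusted p 0.0686). With Wwtr1 siRNA all 5 were called, where 21.3% of genes were called and 10.3% were called lower and 11% higher. Ccn1 (adjusted p 0.00202), Ccn2 (adjusted p 0.000781), Ccn3 (adjusted p 1.8e-05) and Ccn5 (adjusted p 0.00397) were lower and Ccn4 was higher (adjusted p 0.0128). Between the single knockdowns, where 22.6% of genes were called, Ccn2 (adjusted p 0.00314) and Ccn4 (adjusted p 0.000813) were lower under Yap siRNA and Ccn3 was lower under Wwtr1 siRNA (adjusted p 0.000293). Ccn1 (log2 difference -0.17, 95% interval -0.30 to -0.04, adjusted p 0.0582) and Ccn5 (0.05, 95% interval -0.13 to 0.24, adjusted p 0.686) did not pass between them. The fold changes are the same in these fits, and it is their standard errors that differ. For Ccn2 the SE was 0.19 over all 12 libraries without a block, 0.17 over all 12 with the block, 0.17 on the 9 libraries without a block, and 0.06 on the 9 libraries with it. The block over all 12 libraries called 2 members under Yap siRNA (7.36% of all genes) and 2 under Wwtr1 siRNA (11.1%). The 9 libraries without a block, an alternative chosen after seeing the data, called 2 (5.69% of all genes) and 1 (11.1%). Marker genes were called in the blocked fit on 9 libraries as well. Under Wwtr1 siRNA, 7 of 10 macrophage markers were lower, 6 of 10 cardiomyocyte markers were called (5 higher, 1 lower), 7 of 10 fibroblast markers were called (4 higher, 3 lower), and 4 of 8 smooth muscle and pericyte markers were higher. Under Yap siRNA, 5 of 10 fibroblast and 3 of 10 cardiomyocyte markers were higher, 1 of 10 macrophage markers was lower, and 4 of 8 smooth muscle and pericyte markers were called (2 higher, 2 lower). Of 9 endothelial markers, 1 and 2 were higher under Yap and Wwtr1 siRNA, and of 4 mesothelial markers 1 was higher under each. The part of these markers in the CCN values was not tested.

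Whether the double knockdown differed from the sum of both single effects was tested as an interaction. On the log2 scale the single effects of Ccn1 summed to -0.87 and the double knockdown gave -1.63, an interaction of -0.76 (SE 0.18, 95% interval -1.15 to -0.38, limma adjusted p 0.0646). The sum corresponds to 54.9% of the negative siRNA level and the double knockdown to 32.3%. For Ccn5 these were 55.7% and 34.1%, with an interaction of -0.71 (95% interval -1.18 to -0.24, adjusted p 0.149). For Ccn2 they were 41.9% and 27.8%, with an interaction of -0.59 (95% interval -1.17 to -0.02, adjusted p 0.333). Ccn3 was at 33.1% by the sum and at 31.2% in the double knockdown, an interaction of -0.09 (95% interval -0.83 to 0.66, adjusted p 0.943). Ccn4 was at 109% by the sum and at 94.8%, an interaction of -0.20 (95% interval -0.67 to 0.27, adjusted p 0.751). No member passed in the main fit, where 1.03% of all genes were called, and 3 members (Ccn1, Ccn2 and Ccn5) had an unadjusted p under 0.05, as did 14% of all genes. With a replicate block over all 12 libraries limma called 1 member, Ccn5 (adjusted p 0.0476), and 1.95% of all genes. With edgeR 0 members passed (0.859% of all genes), and with DESeq2 2 passed (4.21% of all genes), Ccn1 (adjusted p 0.00234) and Ccn5 (adjusted p 0.0352). Without double knockdown replicate 3 the interactions of Ccn1, Ccn2, Ccn3, Ccn4 and Ccn5 were -0.65, -0.43, 0.05, -0.12 and -0.78. The Ccn3 interaction changed sign in 5 of 12 fits that left out a library, those without negative siRNA replicate 1 or 2, Yap siRNA replicate 3, Wwtr1 siRNA replicate 3 or double knockdown replicate 3 (0.033 to 0.17). That of Ccn4 ran from -0.37 without double knockdown replicate 1 to -0.076 without negative siRNA replicate 3.

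**Figure D4:**
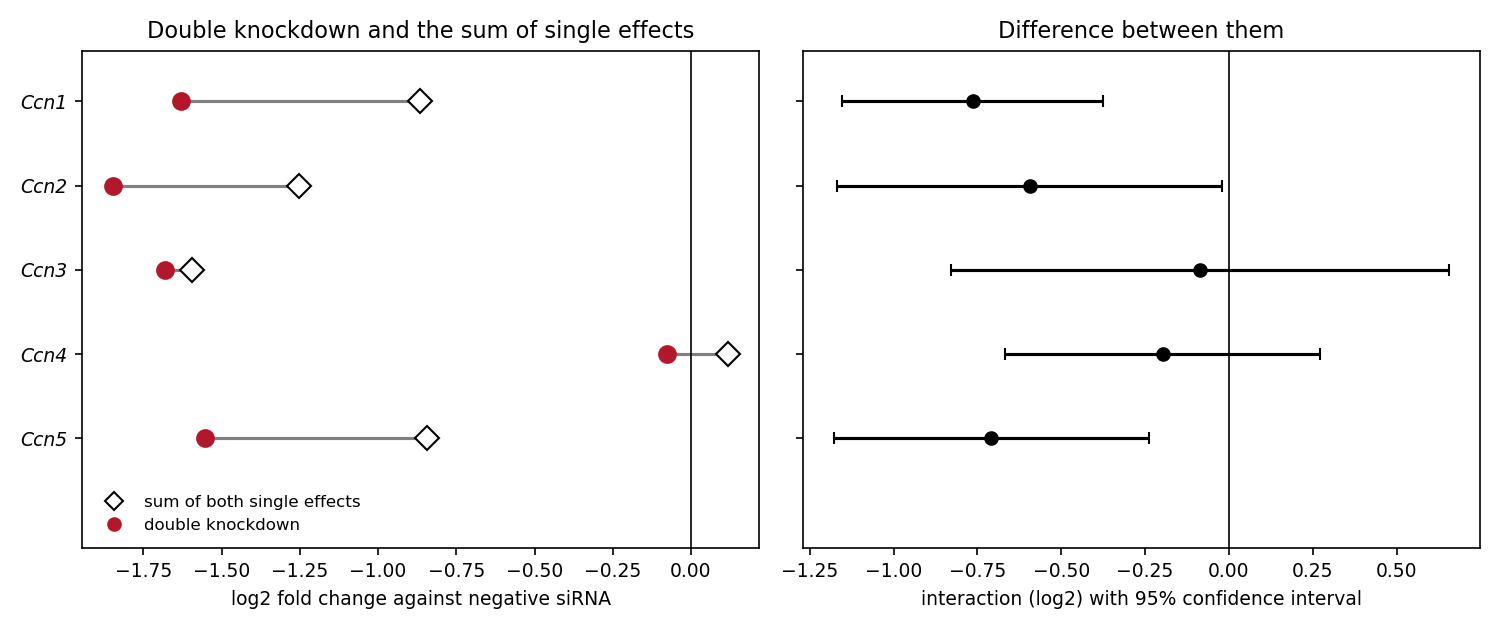
Left, log2 fold change against negative siRNA of the double knockdown (circles) and the sum of both single knockdown effects (diamonds) for each CCN gene. Right, their difference, the interaction, with its 95% confidence interval from limma. The interactions of Ccn1, Ccn2 and Ccn5 are -0.76, -0.59 and -0.71, while the interval of Ccn3 runs from -0.83 to 0.66.

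The members also varied within groups. In the negative, Yap and Wwtr1 siRNA groups, replicate 3 had the highest Ccn1, Ccn2 and Ccn3 of its group. In the double knockdown the replicate 3 library had the lowest of all 3 genes, although it kept the most Yap1 and Wwtr1. Ccn5 did not follow this arrangement, since its highest library was replicate 1 with negative and Yap siRNA and replicate 3 under Wwtr1 siRNA and both. Cardiomyocyte marker sums were lowest in replicate 3 of every group, at 42274, 49572, 45120 and 69505 under negative siRNA, Yap siRNA, Wwtr1 siRNA and both, and the interferon response list was lowest there too, at 4004, 21747, 17677 and 94418, with 87845 as the highest sum under Wwtr1 siRNA. Whether either list bears on the CCN values was not tested.

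Ratios between members within a library describe the family without reference to library scaling. The log2 ratio of Ccn1 to Ccn2 normalized counts was -1.42 to -1.23 under negative siRNA, -1.18 to -0.92 under Yap siRNA, -1.27 to -1.12 under Wwtr1 siRNA and -1.19 to -1.004 in the double knockdown. The Yap siRNA and double knockdown libraries were thus above all negative siRNA libraries. The log2 ratio of Ccn2 to Ccn3 was 2.47 to 2.92 under negative siRNA, 2.14 to 2.51 under Yap siRNA, 3.19 to 3.67 under Wwtr1 siRNA and 2.40 to 2.80 in the double knockdown. The Wwtr1 siRNA libraries therefore had the highest ratio and did not overlap another group, while the double knockdown lay within or just below the range under negative siRNA. The log2 ratio of Ccn1 to Ccn5 was 0.72 to 1.33, 0.65 to 1.27, 0.99 to 1.29 and 0.61 to 1.26 in the same order of groups, all overlapping. Ccn1 to Ccn4 ranged from 5.12 to 5.75 under negative siRNA, 5.01 to 5.38 under Yap siRNA, 4.37 to 4.93 under Wwtr1 siRNA and 3.55 to 4.22 in the double knockdown. The Wwtr1 siRNA and double knockdown libraries overlapped neither negative siRNA nor each other. Summed over the 5 members, CCN counts were 0.515 to 0.625% of the table under negative siRNA, 0.322 to 0.414% under Yap siRNA, 0.351 to 0.473% under Wwtr1 siRNA and 0.146 to 0.205% in the double knockdown. Since counts were not divided by transcript length, these ratios are followed across groups and do not rank the members.

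Genes with the most similar pattern were found by the root mean square difference of log2 values, each gene centred on its mean over the 12 libraries, among 10097 other genes averaging at least 100 normalized counts. For Ccn1, whose own root mean square around its mean was 0.63, they were Nuak1 (0.130), Amotl2, an angiomotin-family scaffold of the Hippo pathway (0.135), and Slc1a4 (0.143), and Ccn2 lay at 0.140. For Ccn2 no gene was nearer than Ccn1, and the nearest outside the family were Ddah1 (0.146), the Notch ligand Jag1 (0.157) and Lmcd1 (0.168). Ccn3 had less similar neighbours, the transcription factor Ets1 (0.241), Prrg4 (0.275) and Pdlim3 (0.286). For Ccn4 they were Niban1 (0.139), Evc2 (0.141) and Kirrel1 (0.147), although Ccn4 itself varied by 0.30. For Ccn5 they were Siglec10 (0.181), the bone morphogenetic protein Bmp4 (0.182) and the growth factor Pdgfa (0.204). Ccn4 was far from the other members, at 0.64 to 0.83.

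Receptors through which CCN proteins act changed in both directions. Of 16 listed receptors, 14 were measured, and 7 passed in the double knockdown (4 higher, 3 lower, median log2 fold change -0.13 against 0.00 for all genes), where 32.8% of all genes were called. In the main fit 1 was lower under Yap siRNA (4.8% of all genes called) and 1 higher under Wwtr1 siRNA (8.96% called). With the replicate block the counts became 6 (3 higher, 3 lower, beside 16% of all genes) and 9 (5 higher, 4 lower, beside 21.3%). The integrin chain Itga6 fell under Yap siRNA (log2 fold change -1.43, SE 0.19, limma adjusted p 0.00392) and under both (-1.37, adjusted p 0.000292). Under Wwtr1 siRNA it was -0.23 (adjusted p 0.513), and -0.38 to -0.04 when a library was left out. Itgb1, the common beta chain, fell in the double knockdown by 1.00 (SE 0.13, adjusted p 0.000142). With the block Itgb1 was also called lower under Yap siRNA (adjusted p 0.000993) and under Wwtr1 siRNA (adjusted p 0.00467). Gja1, the gap junction protein connexin 43, rose by 1.44 (SE 0.24, adjusted p 0.000885), and Lrp1, an endocytic receptor, rose by 0.68 (SE 0.12, adjusted p 0.00118), both in the double knockdown. With the block Gja1 was also called higher under Yap siRNA (adjusted p 0.00088) and Lrp1 under Wwtr1 siRNA (adjusted p 0.00203). Without the block, Lrp1 under Wwtr1 siRNA passed when double knockdown replicate 2 or 3 was left out (adjusted p 0.0265 to 0.0438), and Itgb1 under Yap siRNA when Yap siRNA replicate 3 or double knockdown replicate 3 was (adjusted p 0.0415 to 0.0475). These 5 double and single knockdown calls of the main fit held in all 12 fits that left out a library.

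Among ligands and matrix proteins that CCN proteins bind, 8 of 10 were measured and 4 passed in the double knockdown (1 higher, 3 lower, median -0.15), beside 32.8% of all genes. In the main fit 1 was called with each single siRNA, lower in both cases (4.8% and 8.96% of all genes called). The block gave 3 (1 higher, 2 lower) under Yap siRNA, beside 16% of all genes, and 2 (1 higher, 1 lower) under Wwtr1 siRNA, near the 21.3% of all genes. Tnfrsf11b, the decoy receptor osteoprotegerin, fell under Yap siRNA (-0.93, SE 0.12, adjusted p 0.00372), under Wwtr1 siRNA (-0.91, adjusted p 0.00122) and under both (-1.98, adjusted p 4.55e-06). Bmp4, also a near neighbour of Ccn5, was -0.02 and -0.19 under Yap and Wwtr1 siRNA and fell by 1.23 in the double knockdown (SE 0.14, adjusted p 8.35e-05). Leaving out a library moved the single siRNA values to between -0.17 and 0.12 for Yap and between -0.32 and -0.11 for Wwtr1. The growth factor Fgf2 fell by 1.19 (SE 0.30, adjusted p 0.00954) and the proteoglycan Dcn rose by 2.01 (SE 0.39, adjusted p 0.00211) in the double knockdown. With the block Fgf2 was also called lower under Yap siRNA (adjusted p 0.0254), as it was without negative siRNA replicate 1 (adjusted p 0.0483). Dcn was called higher with both single siRNAs under the block (adjusted p 0.000119 and 0.00149). Fn1, the matrix protein fibronectin, did not pass in any group of the main fit (-0.22 in the double knockdown, adjusted p 0.154).

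Inducers of CCN genes and their transcription factors were measured for 14 of 17 listed genes, and 7 passed in the double knockdown (2 higher, 5 lower, median -0.21), where 32.8% of all genes were called and 15.6% were called lower. The main fit called 3 under Yap siRNA (1 higher, 2 lower, beside 4.8% of all genes) and 4 under Wwtr1 siRNA (1 higher, 3 lower, beside 8.96%). The block gave 6 (2 higher, 4 lower, beside 16%) and 7 (2 higher, 5 lower, beside 21.3%). Smad3, which carries the transforming growth factor beta signal into the nucleus, rose under Yap siRNA (0.34, SE 0.08, limma adjusted p 0.0329), Wwtr1 siRNA (0.69, adjusted p 0.000655) and both (0.66, adjusted p 9.38e-05). Its partner Smad2 fell under Wwtr1 siRNA (-0.31, SE 0.07, adjusted p 0.0233) and under both (-0.60, adjusted p 0.000124). The ligands Tgfb3 and Tgfb2 fell under Yap siRNA (-0.91, adjusted p 0.0342, and -0.92, adjusted p 0.0387) and under both (-1.45, adjusted p 0.000355, and -1.38, adjusted p 0.000648). With the block both were also called lower under Wwtr1 siRNA (adjusted p 0.00611 and 0.000372). The call of Smad3 under Wwtr1 siRNA held in all 12 fits that left out a library, whereas other single knockdown calls of these genes did not. Smad3 under Yap siRNA was lost without negative siRNA replicate 1 or 3 or Yap siRNA replicate 1 or 3 (adjusted p 0.0809 to 0.129), and Smad2 under Wwtr1 siRNA without negative or Wwtr1 siRNA replicate 2 or 3 (adjusted p 0.0714 to 0.0891). Tgfb3 under Yap siRNA was lost without negative siRNA replicate 1 or 3, Yap siRNA replicate 1 or 2, or Wwtr1 siRNA replicate 2 (adjusted p 0.056 to 0.135). Tgfb2 was lost without negative siRNA replicate 2 or 3, Yap siRNA replicate 1 or 2, Wwtr1 siRNA replicate 2 or double knockdown replicate 2 (adjusted p 0.0529 to 0.154).

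**Figure D5:**
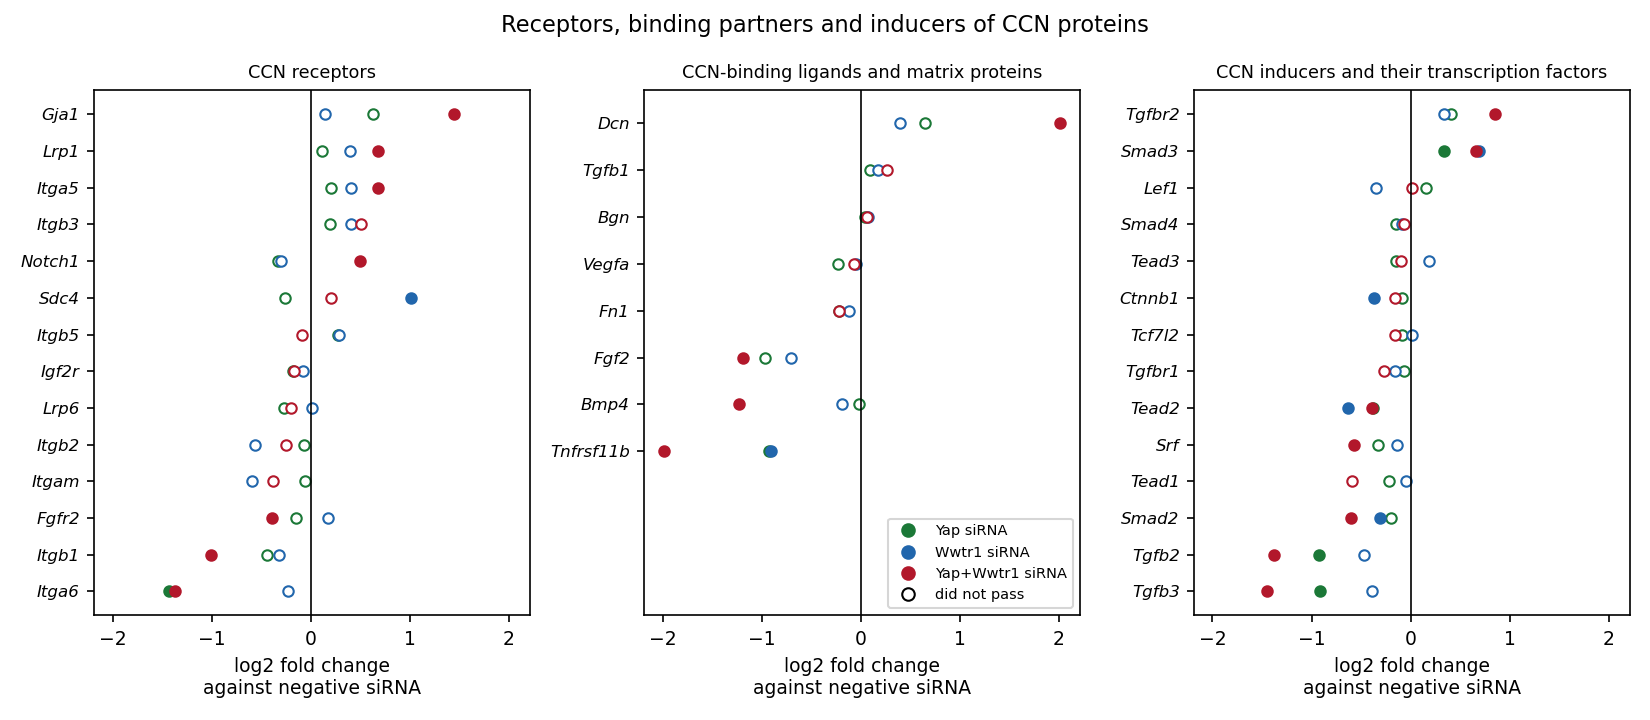
Log2 fold change against negative siRNA (x axes) of the measured receptors, binding partners and inducers of CCN proteins (rows, ordered by the double knockdown) for Yap siRNA, Wwtr1 siRNA and both, with open circles where the limma adjusted p was not under 0.05. In the double knockdown, values run from -1.98 (Tnfrsf11b) to 2.01 (Dcn).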

How the data were processed

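Neonatal rat cardiac fibroblast RNA was sequenced by the authors on a DNBSEQ-G400, trimmed with Trim Galore 0.6.5, aligned to rn6 with HISAT2, assembled with StringTie2 and tested with DESeq2. The study repeated the culture with separate litters, but does not say that a replicate number marks a litter. Use of strand in counting was not stated. The deposited signal values are gene counts that the authors scaled by a size factor for each library. All 147252 values came out as whole reads (tolerance 0.001 reads), although these units may be reads, mates of pairs or numbers computed from transcript coverage, and the totals exceed the depth that the study names. The authors' deposited fold changes and p-values were not used, and every value column was matched to a sample.

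The main test was limma 3.58.1 (R 4.3.3) with a mean-variance trend on log2(normalized count + 1) over all 12 libraries, for 11871 genes with a mean of at least 10, two-sided, with Benjamini-Hochberg adjustment over all of them and a threshold of 0.05. Such fold changes understate low genes. Size factor scaling assumes that most genes do not change. The median over all genes moved by less than 0.1 under every scaling tried. Each of these scalings rests on a like assumption, so the median does not test it. With 3 against 3 libraries an exact permutation test cannot go below 0.1, so none was used. Alternatives were pseudocounts of 0.1 and 10, filters, upper-quartile and TMM scaling, DESeq2 1.42.0 or edgeR 4.0.16 on recovered reads, fewer groups, no trend, a replicate block, leaving out each library and, chosen after seeing the data, the 9 libraries outside the double knockdown without a block. The steps were tested on simulated data.

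Same-numbered libraries of the negative, Yap and Wwtr1 siRNA groups correlated at 0.104 to 0.276 in their deviations from group means (9 correlations, limit 0.1), so their numbers were taken as pairs. Correlations with the double knockdown were -0.127 to 0.180, and it was treated as sharing only a number. From each list, up to 4 genes were named, those called in the most comparisons with negative siRNA and then those of smallest p in the double knockdown, and for each member the 3 nearest genes were named. Fn1, Isg15 and Postn were named after their values were seen. Members and lists were chosen with earlier results of these data known. Of the table's symbols, 11860 matched GRCr8, the build of the promoter sequences, and no coordinates of the files' own build were used.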

Additional observations from a re-analysis of the deposited data

How the results depend on the processing

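The double knockdown calls of Ccn1, Ccn2, Ccn3 and Ccn5 against negative and against Yap siRNA, and of Ccn1, Ccn2 and Ccn5 against Wwtr1 siRNA, kept their direction and side of the threshold under every alternative run. Of 830 recomputed fold changes of the members, 773 kept both, 33 lost their call, 14 gained one and 10 reversed. Causes were not tested. Leaving out one library gave -0.57 to -0.45 for Ccn1 and -0.94 to -0.70 for Ccn2 with Yap siRNA, -1.28 to -0.90 for Ccn3 and -0.59 to -0.31 for Ccn5 with Wwtr1 siRNA, and -0.25 to 0.046 for Ccn4 in the double knockdown, which reversed without negative siRNA replicate 2 or double knockdown replicate 2. Other reversals, all of values that passed in no fit, were Ccn5 between the single knockdowns (-0.032 to 0.20), the Ccn3 interaction (-0.33 to 0.17), Wwtr1 with Yap siRNA (-0.092 to 0.022) and Yap1 with Wwtr1 siRNA (-0.097 to 0.073). Members called ranged from 0 to 2 with Yap siRNA (111 to 766 of all genes), 0 to 2 with Wwtr1 siRNA (548 to 1420), 0 to 1 between the single knockdowns (434 to 1413), and 3 to 4 for the double knockdown against Wwtr1 siRNA (1292 to 2340). Without a trend 0 members passed with Yap siRNA (Ccn1 -0.52, Ccn2 -0.81), where 294 of all 11871 genes did.

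The replicate block without the double knockdown called 4 members with Yap siRNA (adding Ccn3 -0.46 and Ccn5 -0.39), 5 with Wwtr1 siRNA (adding Ccn1 -0.35, Ccn2 -0.45, Ccn4 0.40 and Ccn5 -0.45) and 3 between them. The shares of all genes called were 16%, 21.3% and 22.6% in the same order. This block left the calls of Yap1 and Wwtr1 where they were. The same 9 libraries without a block, an alternative chosen after seeing the data, changed no call of a member. The block over all 12 libraries called 2 members with Wwtr1 siRNA (adding Ccn5, -0.45), beside 11.1% of all genes. It called 1 in the interaction (Ccn5, limma adjusted p 0.0476), beside 1.95% of all genes, where the double knockdown shares only a number. DESeq2 called 2 with Wwtr1 siRNA (adding Ccn5, -0.46; 13% of all genes) and 2 in the interaction (4.21% of all genes).

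Over all genes, calls with Yap siRNA went from 570 to 1013 with DESeq2, 874 and 1904 with the blocks, 294 without a trend and 111 to 766 without one library. With Wwtr1 siRNA they went from 1064 to 2527 with the block and 548 to 1420 without one library, and between the single knockdowns from 1044 to 2680 and 434 to 1413. For the double knockdown against Yap siRNA, 1637 became 774 in the compared groups alone and 751 to 1870 without one library, and against Wwtr1 siRNA 2359 became 1292 to 2340. The interaction's 122 became 500 with DESeq2, 231 with the block, 60 without a trend and 31 to 160 without one library. The lowest value of any member was 849 normalized counts (Ccn4).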
